A study of Mus musculus with 6 samples.

Results

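Genes of the type I interferon response were measured in whole-lung RNA of mice at postnatal day 15, in 3 lungs whose genotype label reads Foxa2-/- and in 3 wild-type control lungs of littermates. The list named 37 interferon-stimulated genes and receptor chains, and all 37 had at least 1 single-gene probe set on the Affymetrix arrays, among 18193 genes in all. Each gene was represented by its probe set with the highest mean over the 6 arrays, and 19 of the 37 had more than 1. Foxa2 is a forkhead protein that regulates transcription in airway and alveolar epithelium, and the study addressed its part in Th2 inflammation and in the excess of mucus-producing goblet cells. All 6 samples, controls included, carry the strain label SPC(+)Cre(-) with doxycycline (Dox) from embryonic day 6.5 to 12.5, a label that does not separate the groups and goes against the genotype label of the Foxa2-/- lungs. SPC is surfactant protein C, a product of the distal lung epithelium whose promoter is widely used to drive transgenes there. The labels neither spell out the transgenes nor say whether lungs were pooled. Nor do they tie each array to an animal of its own, so the p-values reflect only the spread among these arrays, part of which may be technical.

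Type I interferons are secreted proteins that cells make when sensors such as MDA5 detect viral nucleic acid. They bind a receptor of the chains IFNAR1 and IFNAR2, and signalling from it brings STAT2 and IRF9 into the complex ISGF3. ISGF3 binds a DNA element called ISRE before many interferon-stimulated genes, whose products block viral replication, and IRF7 and USP18 among them feed back on the response. In the lung these genes are known for the defence against respiratory viruses. RNA of a whole lung comes from many cell types, and fewer cells of a type and less RNA per cell cannot be told apart.

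The DNA before the start of several members shows the element that ISGF3 reads, so it is printed for those the results turn on. RefSeq promoter sequences (GRCm38.p6) were found for 27 of the 37 members, and the 250 bases before each start were searched on both strands for the ISRE core, which is GAAA, any 2 bases and GAAA again. It occurred before 8 of the 27 members (29.6%), namely Stat2, Ifit1, Ifit3, Oas1a, Oas3, Rsad2, Bst2 and Trim30a, against 3.47% of all 26734 genes with such a sequence. These are matches of letters in a window, not measured binding. Below, 5′ to 3′ on the strand of the gene, capitals mark each ISRE core, which reads TTTC, 2 bases and TTTC where it lies on the opposite strand. Ifnar1, which has no match, is given for comparison. Most of the 27 have no match either, among them Irf7, Ifit2, Oasl1, Oasl2, Eif2ak2 and Herc6, which were each highest in Foxa2-/- replicate 3. Rsad2 has a core and was not highest there. Any link between a core and the signals was not tested.
Stat2, chr10:128270248-128270497, plus strand: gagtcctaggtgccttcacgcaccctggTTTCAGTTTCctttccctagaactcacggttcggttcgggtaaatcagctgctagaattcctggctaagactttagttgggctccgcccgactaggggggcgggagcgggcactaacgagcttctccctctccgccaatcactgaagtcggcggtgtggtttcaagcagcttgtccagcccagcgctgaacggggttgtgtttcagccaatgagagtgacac
Ifit1, chr19:34640639-34640888, plus strand: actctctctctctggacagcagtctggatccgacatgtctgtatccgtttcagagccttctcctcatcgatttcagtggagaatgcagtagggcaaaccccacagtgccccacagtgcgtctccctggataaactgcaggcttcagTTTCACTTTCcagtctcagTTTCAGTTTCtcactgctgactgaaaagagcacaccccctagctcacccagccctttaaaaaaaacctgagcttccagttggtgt
Ifit3, chr19:34583279-34583528, plus strand: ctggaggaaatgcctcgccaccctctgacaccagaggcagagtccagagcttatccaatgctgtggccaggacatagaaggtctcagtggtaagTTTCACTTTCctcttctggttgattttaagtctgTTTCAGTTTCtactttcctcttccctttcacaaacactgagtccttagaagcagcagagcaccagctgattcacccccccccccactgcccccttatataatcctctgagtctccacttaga
Oas1a, chr5:120907526-120907775, minus strand: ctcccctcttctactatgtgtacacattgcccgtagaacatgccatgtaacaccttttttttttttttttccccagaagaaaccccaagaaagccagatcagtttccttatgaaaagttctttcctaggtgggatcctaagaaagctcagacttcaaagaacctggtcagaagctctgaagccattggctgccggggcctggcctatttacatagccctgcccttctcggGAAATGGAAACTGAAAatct
Oas3, chr5:120777660-120777909, minus strand: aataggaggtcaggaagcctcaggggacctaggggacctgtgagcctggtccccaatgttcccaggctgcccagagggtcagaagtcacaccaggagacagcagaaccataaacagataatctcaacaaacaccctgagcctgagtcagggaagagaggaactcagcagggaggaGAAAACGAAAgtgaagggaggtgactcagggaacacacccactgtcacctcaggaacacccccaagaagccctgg
Rsad2, chr12:26456453-26456702, minus strand: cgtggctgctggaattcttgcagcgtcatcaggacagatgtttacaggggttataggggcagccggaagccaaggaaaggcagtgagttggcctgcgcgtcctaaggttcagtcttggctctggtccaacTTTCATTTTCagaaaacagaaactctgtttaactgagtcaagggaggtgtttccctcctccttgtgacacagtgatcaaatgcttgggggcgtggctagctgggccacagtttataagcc
Ifnar1, chr16:91484965-91485214, plus strand: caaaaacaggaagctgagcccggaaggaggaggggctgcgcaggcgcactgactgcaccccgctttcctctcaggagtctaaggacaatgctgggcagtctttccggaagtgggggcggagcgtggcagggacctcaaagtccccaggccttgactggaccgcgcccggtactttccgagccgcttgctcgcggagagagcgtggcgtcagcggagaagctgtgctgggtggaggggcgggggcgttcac
In Ifit1 the cores begin 104 and 85 bases before the start, in Ifit3 156 and 122, and in Oas1a 20 and 14, where they overlap. Oas3 has a single core 75 bases before its start, Rsad2 1 at 120 and Stat2 1 at 222.

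Values are deposited log2 signals made with RMA, a method that equalises the arrays and summarises the probes of a probe set, and 1 unit is a 2-fold ratio. They ran from 2.36 to 14.95 with array medians of 7.85 to 7.91, and Pearson's r between arrays over all probe sets was 0.972 to 0.992. The lowest values of r were those of Foxa2-/- replicate 1, at 0.9723 to 0.9783 with each other array, while Foxa2-/- replicates 2 and 3 had the highest (0.9921). Control replicate 2 and Foxa2-/- replicates 2 and 3 share the first number in their titles, whose meaning is not given, and this was treated as a possible batch. Foxa2 read 7.72, 5.38 and 5.13 in the Foxa2-/- lungs, against 10.28, 10.56 and 10.28 in controls, a difference of -4.30 (SE 0.66, limma adjusted p = 0.0599). That is short of the adjusted p threshold of 0.05 used throughout, and without Foxa2-/- replicate 1 it was -5.12 (adjusted p = 0.00227).

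None of the 37 interferon genes passed the test between Foxa2-/- and control lungs, while most stood high in a single Foxa2-/- array. With limma fitted over all 18193 genes, none had an adjusted p under 0.05, none had an unadjusted p under 0.05, and the lowest adjusted p was 0.448, for Oas3. Over all genes 0.572% passed (0.473% higher and 0.0989% lower in Foxa2-/- lungs), and 12.3% had an unadjusted p under 0.05. The median log2 difference of the members was 0.43, beside 0.01 for all genes, with 33 positive and 4 negative, and it ran from -0.49 for Ifit2 to 2.07 for Oas3. By the brightest probe set, the groups separated in none of the 37. Of all genes, read the same way, 19.6% had every Foxa2-/- array above (10.8%) or every one below (8.73%) all 3 controls. Instead, single arrays stood apart inside each group. Foxa2-/- replicate 3 was the highest of the 6 arrays for 33 members, against 9.11% of all genes.

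**Figure D1:**
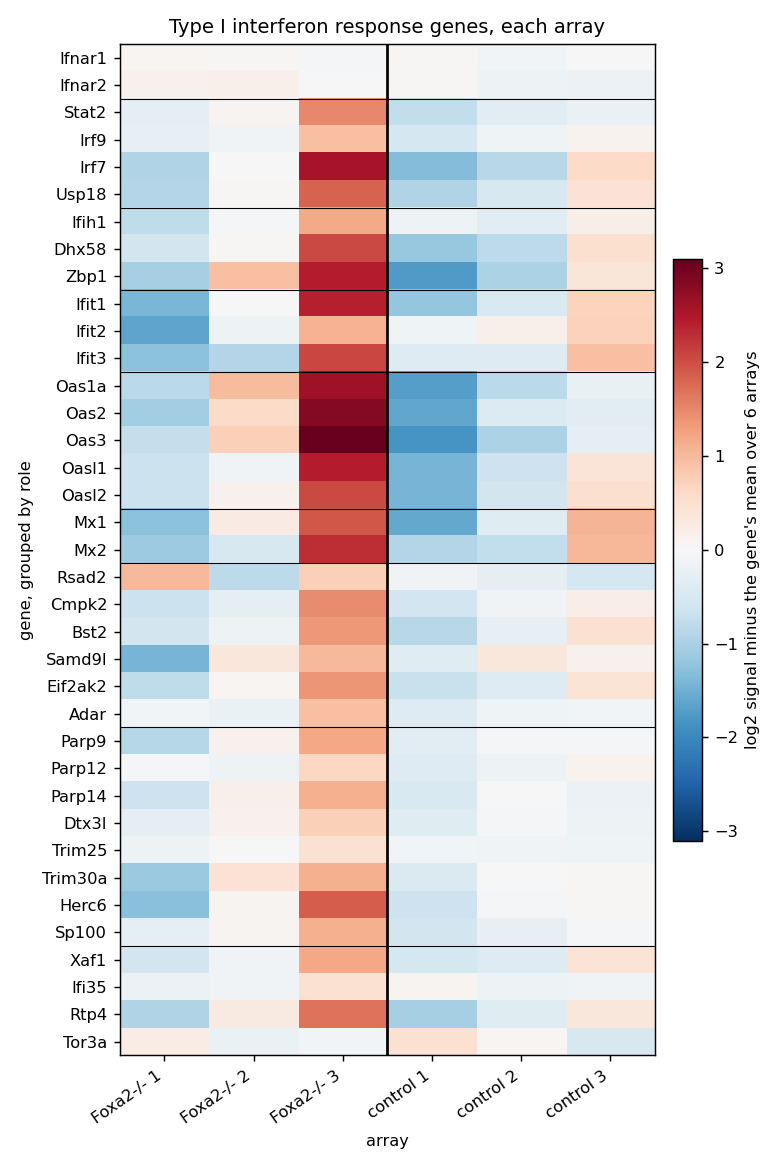
Heat map of the 37 genes (rows, grouped by role) in the 6 arrays (columns, Foxa2-/- left of control), coloured by the log2 signal minus the mean of that gene over the 6 arrays. Foxa2-/- replicate 3 is the highest array in 33 rows, while the receptor genes Ifnar1 and Ifnar2, and Rsad2 and Tor3a, do not follow it.

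In their brightest probe sets the 2 receptor chains were nearly level. Ifnar1 read 10.82, 10.78 and 10.69 in Foxa2-/- lungs, against 10.79, 10.67 and 10.77 in controls, a difference of 0.02 with a 95% interval of -0.23 to 0.27. Ifnar2 read 10.79, 10.80 and 10.65 in Foxa2-/- lungs and 10.69, 10.48 and 10.47 in controls, a difference of 0.20 (interval -0.08 to 0.48, limma adjusted p = 0.559). Their ranges over the Foxa2-/- arrays were 0.13 and 0.15, so the arrays that stood apart in other members were alike in the genes that receive the signal.

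The 4 genes that carry the signal to the nucleus and regulate it averaged 0.38 to 1.07 higher in Foxa2-/- lungs, and none passed. In each, Foxa2-/- replicate 3 lay above all controls and replicate 1 among them. Irf7, the transcription factor that amplifies interferon production, read 8.74, 9.65 and 12.23 in Foxa2-/- lungs, against 8.33, 8.81 and 10.25 in controls. Replicate 3 was thus 11.2-fold above replicate 1 among the Foxa2-/- lungs, and control replicate 3 was 3.78-fold above control replicate 1. The group difference of 1.07 was of the size of its SE, 0.94 (interval -1.18 to 3.32, limma adjusted p = 0.694). Usp18, a protease that removes ISG15 from proteins and dampens the receptor, read 10.06, 11.00 and 12.80 in Foxa2-/- lungs and 10.03, 10.46 and 11.41 in controls. Stat2, the subunit of ISGF3 that activates transcription, read 9.24, 9.59 and 11.00 in Foxa2-/- lungs and 8.75, 9.20 and 9.32 in controls, where only replicate 3 of the Foxa2-/- lungs lay well beyond the controls. Irf9, the DNA-binding subunit, read 10.70, 10.84 and 11.90 in Foxa2-/- lungs and 10.40, 10.83 and 11.07 in controls. Differences of these 3 genes were 0.65 (SE 0.71), 0.85 (SE 0.45) and 0.38 (SE 0.35), with limma adjusted p values of 0.75, 0.519 and 0.705.

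**Figure D2:**
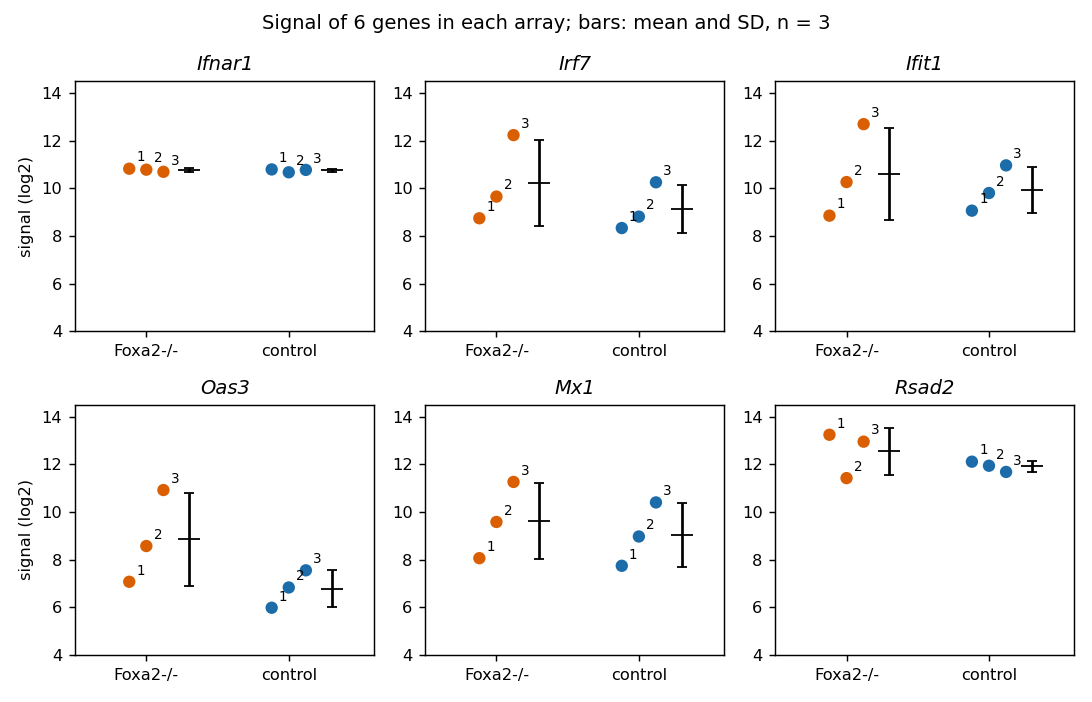
Log2 signal of Ifnar1, Irf7, Ifit1, Oas3, Mx1 and Rsad2 in each of the 6 arrays (points, numbered by replicate; Foxa2-/- left, control right), with the mean and SD of each group beside them (n = 3 each). Irf7, Ifit1, Oas3 and Mx1 spread widely within both groups with replicate 3 on top, Ifnar1 lies between 10.67 and 10.82, and Rsad2 is highest in Foxa2-/- replicate 1.

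Sensors of viral nucleic acid showed the same arrays on top. Zbp1, which senses left-handed nucleic acid, read 7.91, 9.88 and 11.39 in Foxa2-/- lungs, against 7.19, 7.97 and 9.33 in controls. Foxa2-/- replicates 2 and 3 lay above all controls and replicate 1 among them, for a difference of 1.56 (SE 0.93, limma adjusted p = 0.568). Dhx58, the RNA-binding regulator LGP2, read 7.85, 8.45 and 10.46 in Foxa2-/- lungs and 7.23, 7.59 and 8.90 in controls. Ifih1, which encodes MDA5, a sensor of long double-stranded RNA, read 9.43, 10.16 and 11.38 in Foxa2-/- lungs and 10.04, 9.85 and 10.39 in controls, so Foxa2-/- replicate 1 was the lowest of all arrays.

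The IFIT genes, whose products bind foreign RNA and hold back its translation, had no common sign between groups but the same spread within them. Ifit1 read 8.85, 10.26 and 12.69 in Foxa2-/- lungs, against 9.06, 9.80 and 10.96 in controls. Ifit3 read 10.22, 10.58 and 13.57 in Foxa2-/- lungs and 11.10, 11.09 and 12.43 in controls. Ifit2 read 8.35, 9.84 and 11.06 in Foxa2-/- lungs and 9.85, 10.16 and 10.70 in controls. In each of the 3 genes both the lowest and the highest of the 6 values came from Foxa2-/- lungs, replicates 1 and 3, which differed 14.3-fold in Ifit1, 10.2-fold in Ifit3 and 6.54-fold in Ifit2. The group differences were 0.66, -0.08 and -0.49, with limma adjusted p values of 0.82, 0.979 and 0.794.

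The OAS genes had the highest median difference of the role groups, 1.59, though none of the 5 passed. They encode 2'-5' oligoadenylate synthetases, which switch on an RNA-cutting enzyme when they meet double-stranded RNA, and related OAS-like proteins. Oas3 read 7.07, 8.57 and 10.92 in Foxa2-/- lungs, against 5.98, 6.83 and 7.55 in controls, a difference of 2.07 (SE 0.95, interval -0.21 to 4.35, limma adjusted p = 0.448). Oas1a read 9.06, 10.89 and 12.54 in Foxa2-/- lungs and 8.20, 9.08 and 9.67 in controls, a difference of 1.85 (SE 0.86, adjusted p = 0.454). In both genes Foxa2-/- replicates 2 and 3 lay above every control and replicate 1 lay within the control range. Oas2, which neighbours Oas3 with no coding gene between them, read 7.64, 9.31 and 11.55 in Foxa2-/- lungs and 7.09, 8.29 and 8.36 in controls. Oasl2 read 9.57, 10.37 and 12.27 in Foxa2-/- lungs and 8.79, 9.66 and 10.73 in controls, where only replicate 3 exceeded the controls. Oasl1 read 6.38, 6.94 and 9.47 in Foxa2-/- lungs and 5.60, 6.40 and 7.44 in controls. Its control replicate 1 is below the 25th percentile of that array (5.75), a level so dim that a probe set may hold little beyond background, and no other member had such an array.

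Mx1 and Mx2, dynamin-like GTPases that trap viral particles, had the widest control ranges among the role groups. Mx1 read 8.06, 9.58 and 11.26 in Foxa2-/- lungs, against 7.74, 8.97 and 10.40 in controls, so control replicate 3 was above 2 of the Foxa2-/- lungs and 6.32-fold above control replicate 1. Mx2 read 6.02, 6.64 and 9.43 in Foxa2-/- lungs and 6.25, 6.38 and 8.17 in controls. Differences were 0.59 (SE 0.94) and 0.43 (SE 0.96), with limma adjusted p values of 0.83 and 0.886.

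Rsad2, which encodes viperin, an enzyme that makes a chain-terminating nucleotide against viral RNA synthesis, did not follow the other effectors. It read 13.24, 11.42 and 12.95 in Foxa2-/- lungs, against 12.11, 11.94 and 11.68 in controls. Replicate 1 was here the highest array and replicate 2 the lowest, and control replicate 3, the highest control for Irf7 and Mx1, was the lowest control here. Its other 2 probe sets gave 12.49 and 8.86 in Foxa2-/- replicate 1, against 9.92 and 6.26 in replicate 2, so the pattern was the same in all 3 probe sets. Cmpk2, the neighbouring gene with no coding gene between, encodes the kinase that supplies viperin's substrate. It read 8.77, 9.15 and 10.89 in Foxa2-/- lungs and 8.84, 9.32 and 9.64 in controls, with Foxa2-/- replicate 1 the lowest array.

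Other antiviral effectors followed replicate 3. Bst2, the tether that holds budding virions at the membrane, read 10.37, 10.78 and 12.28 in Foxa2-/- lungs, against 10.07, 10.67 and 11.40 in controls. Eif2ak2, the kinase PKR that stops translation on double-stranded RNA, read 9.36, 10.21 and 11.52 in Foxa2-/- lungs and 9.45, 9.74 and 10.56 in controls. Samd9l, a growth-suppressing antiviral factor, read 10.39, 12.17 and 12.82 in Foxa2-/- lungs and 11.46, 12.17 and 11.95 in controls, and its Foxa2-/- replicate 1 was 5.39-fold below replicate 3. Adar, the enzyme that edits adenosine in double-stranded RNA, spread less, at 9.87, 9.76 and 10.89 in Foxa2-/- lungs and 9.57, 9.82 and 9.88 in controls. Differences of these 4 genes were -0.07 to 0.44.

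The 8 genes of the ubiquitin, ADP-ribose and nuclear body factors varied least in controls after the receptor, with a median range of 0.48 there and of 1.57 over the Foxa2-/- arrays. Herc6, the mouse ligase that attaches ISG15, read 7.82, 9.21 and 10.98 in Foxa2-/- lungs, against 8.46, 9.05 and 9.16 in controls. Parp9, an ADP-ribosyltransferase, and Dtx3l, the ubiquitin ligase that partners it, are neighbours. Parp9 read 9.63, 10.64 and 11.71 in Foxa2-/- lungs and 10.16, 10.44 and 10.47 in controls, while Dtx3l read 11.79, 12.21 and 12.83 in Foxa2-/- lungs and 11.71, 12.05 and 11.93 in controls. Replicate 3 was on top in both, but replicate 1 was below all controls only in Parp9. Trim25, the ligase that activates the sensor RIG-I, read 12.16, 12.31 and 12.78 in Foxa2-/- lungs and 12.23, 12.20 and 12.19 in controls, the narrowest control range of the 37 (0.04). Sp100, a nuclear body component, had the largest difference of the 8 by brightest probe set, 0.59 (SE 0.36, limma adjusted p = 0.576). Parp12 and Parp14, further ADP-ribosyltransferases, differed by 0.29 (SE 0.24) and 0.43 (SE 0.42), and both were highest in Foxa2-/- replicate 3. The dimmer Parp14 probe set read 9.07, 9.01 and 10.42 in Foxa2-/- lungs and 8.06, 8.58 and 8.49 in controls, with every Foxa2-/- array above all controls. Its difference was 1.13 (SE 0.39, limma unadjusted p = 0.025, adjusted p = 0.382 over all probe sets).

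Trim30a, which restrains innate signalling in mice, differed between its probe sets. Its brighter probe set read 10.65, 12.24 and 12.88 in Foxa2-/- lungs and 11.35, 11.79 and 11.83 in controls. The dimmer one read 5.57, 9.15 and 10.47 in Foxa2-/- lungs, against 8.0, 8.20 and 8.25 in controls, so Foxa2-/- replicate 1 lay below the 25th percentile of its array (5.78) and every other array well above. Among genes outside the list, Trim12a, a TRIM gene chosen after its values were seen, read 5.22, 11.22 and 11.97 in Foxa2-/- lungs and 9.99, 10.34 and 10.20 in controls, again with replicate 1 alone at a dim level.

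Of the remaining 4 members, Rtp4, a chaperone of membrane receptors that is strongly induced by interferon, read 9.82, 11.02 and 12.44 in Foxa2-/- lungs, against 9.72, 10.38 and 11.10 in controls. Xaf1, which promotes cell death, read 11.35, 11.81 and 13.11 in Foxa2-/- lungs and 11.37, 11.52 and 12.35 in controls. Ifi35 read 13.02, 13.09 and 13.66 in Foxa2-/- lungs and 13.29, 13.04 and 13.08 in controls. Replicate 3 was highest in these 3 genes, but not in Tor3a, an ATPase of the endoplasmic reticulum, at 11.65, 11.23 and 11.35 in Foxa2-/- lungs and 11.91, 11.50 and 10.94 in controls. The second Tor3a probe set, at 10.61, 10.36 and 11.24 in Foxa2-/- lungs and 10.01, 10.39 and 10.60 in controls, did have replicate 3 on top.

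**Figure D3:**
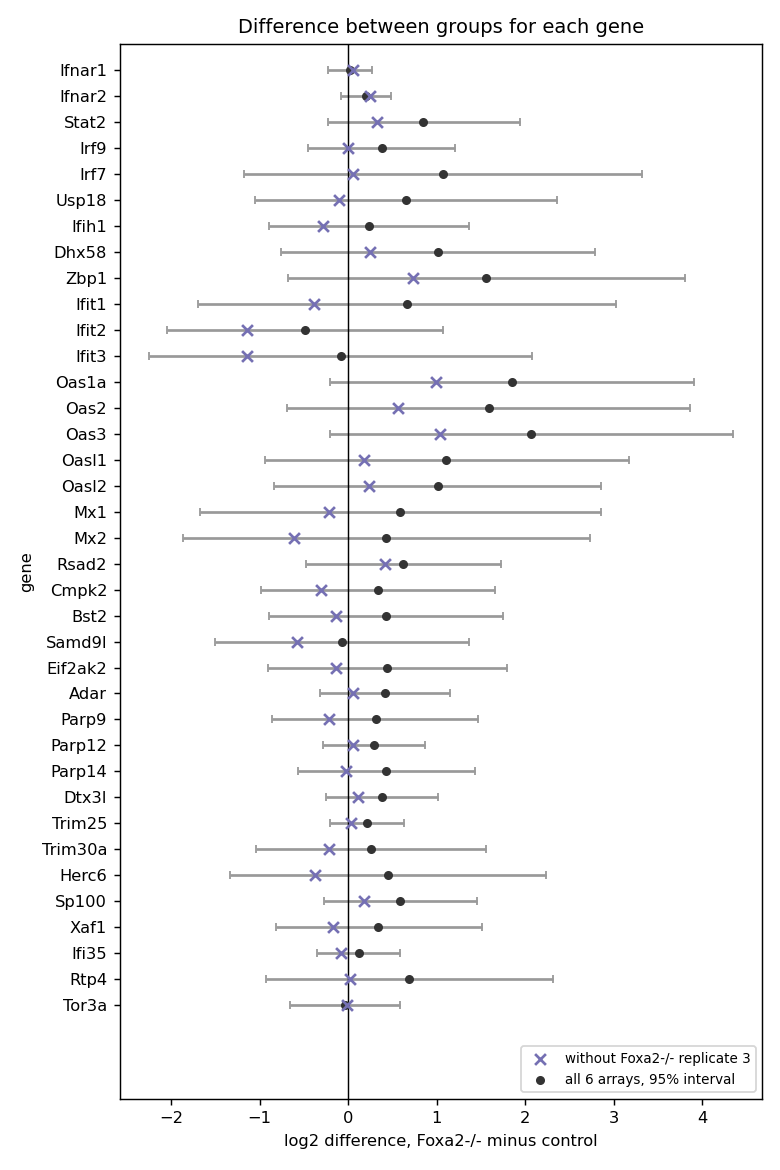
Log2 difference, Foxa2-/- minus control, of each of the 37 genes from limma over all 6 arrays (dots) with its 95% interval (bars), and the difference without Foxa2-/- replicate 3 (crosses). All 37 intervals include 0, and the crosses lie on both sides of 0.

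All 37 intervals included 0, with SEs of 0.10 to 0.98, so the arrays leave room for differences in either direction. For 6 genes (Ifnar1, Ifnar2, Parp12, Trim25, Ifi35 and Tor3a) the whole interval lay within 1 log2 unit of 0, and for the other 31 its upper bound exceeded 1. Of the 66 probe sets of the 37 genes, none passed in a fit over all 45037 probe sets, where 0.0999% did, and 1 had an unadjusted p under 0.05, where 10.7% of all did. Foxa2-/- replicate 3 was the highest array in 56 of the 66. Dimmer probe sets of Parp14 and Adar had every Foxa2-/- array above all controls, and the share of all probe sets that did was not counted.

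The spread within groups was wide for these genes. The median range over the 3 Foxa2-/- arrays was 2.16 for the members and 0.40 for all genes, and over the 3 controls it was 0.85 and 0.28. The Foxa2-/- range was the wider for 35 members (94.6%) and for 64.9% of all genes. A range over 2 log2 units in the Foxa2-/- lungs was seen for 21 of 37 members and for 1.67% of all genes, and one over 1 unit in controls for 16 members and 5.54% of all genes. Foxa2-/- replicate 3 exceeded replicate 2, and replicate 2 exceeded replicate 1, for 31 members (83.8%) and for 14.1% of all genes. Control replicate 3 exceeded replicate 2, and replicate 2 exceeded replicate 1, for 26 members (70.3%) and for 16.2% of all genes. Over the 33 members with Foxa2-/- replicate 3 on top, it was 1.53-fold to 15.1-fold above Foxa2-/- replicate 1, with a median of 5.39-fold. Foxa2-/- replicate 1 lay below all controls for 15 members (40.5%), among them for 19 (51.4%) and above them for 3 (8.11%). Over all genes these shares were 27.7%, 28.7% and 43.6%. The replicates have no order, so these counts describe single arrays. Relative to the mean of each gene over the 6 arrays, the members' median was -0.67, 0.04 and 1.35 in the Foxa2-/- lungs and -0.56, -0.28 and 0.11 in controls.

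The difference between the groups rested on which arrays were used. Without Foxa2-/- replicate 3 the members' median was 0.00, with 18 positive and 18 negative differences. Without Foxa2-/- replicate 1 it was 0.85, and 10 of 37 had an unadjusted p under 0.05, beside 15.8% of all genes. In that fit 12 of the 37 members lay wholly above the controls, among them Oas1a, Oas2, Oas3, Stat2 and Zbp1, and none wholly below. Over all genes 34.7% did not overlap, above and below counted together, and the share above alone was not counted. None of the 37 passed the adjusted threshold in that fit, which 1.37% of all genes did. With the shared title number as a random block, 2.19% of all genes passed and again none of the 37. Without control replicate 1 the median was 0.22, and without control replicate 3 it was 0.59. Within the 3 arrays that share a title number, 2 Foxa2-/- and 1 control, the median difference was 0.92.

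**Figure D4:**
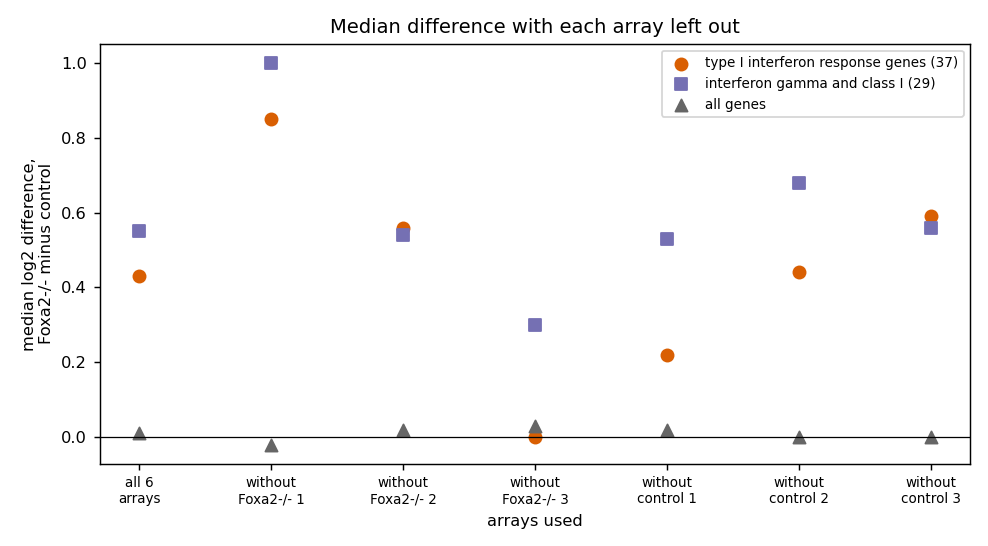
Median log2 difference, Foxa2-/- minus control (vertical axis), over the type I interferon response genes, the interferon gamma and class I list and all genes, with all 6 arrays and with each array left out (horizontal axis). The type I list is at 0.43 with all arrays, at 0.00 without Foxa2-/- replicate 3 and at 0.85 without replicate 1, while all genes stay within 0.03 of 0.

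Most of the interferons themselves were dim. Of 20 ligand genes listed, 9 were measured, and 6 of these were below the 25th percentile in every array, where a change might not be seen. Ifnb1, interferon beta, read 5.0, 4.73 and 5.06 in Foxa2-/- lungs and 4.92, 4.68 and 4.85 in controls. Ifna4, an interferon alpha, differed by 0.10 (SE 0.11) and Ifnz, interferon zeta, by -0.37 (SE 0.37, limma adjusted p = 0.731). Ifnz was not dim and spread over 1.31 in controls, with its highest value in control replicate 3 (8.52). In Foxa2-/- replicate 3, where most response genes were highest, the 9 ligand genes exceeded their highest control by at most 0.14.

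Other genes of the pathway were counted from lists that do not overlap the members. Of 97 such genes measured out of 125 listed, none passed, where 0.572% of all genes did, and 19 had an unadjusted p under 0.05, where 12.3% of all genes did. For the counts of groups that do not overlap, the shares over all genes are again 10.8% above and 8.73% below. Among 43 other interferon-stimulated genes the median difference was 0.31, 6 had every Foxa2-/- array above all controls and 1 below, and Foxa2-/- replicate 3 was the highest array in 34. Slfn2, a quiescence factor of T cells and monocytes, read 11.05, 11.48 and 11.70 in Foxa2-/- lungs, against 10.39, 10.26 and 10.47 in controls (difference 1.03, SE 0.18, limma adjusted p = 0.0795), and Ifi203, a nuclear DNA-binding protein, differed by 0.45 (SE 0.15, adjusted p = 0.291). Isg20 and Ube2l6, chosen after their values were seen, were also highest in Foxa2-/- replicate 1 and, among the Foxa2-/- lungs, lowest in replicate 2. Isg20, an RNA exonuclease, read 12.59, 11.04 and 11.96 in Foxa2-/- lungs and 11.44, 11.12 and 10.87 in controls, and Ube2l6, the enzyme that passes on ISG15, read 10.66, 8.89 and 10.03 in Foxa2-/- lungs and 9.33, 9.04 and 9.15 in controls. Isg15 was not analysed here.

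Among 16 other sensors and signalling genes, 6 had every Foxa2-/- array above all controls and 1 below, beside 10.8% and 8.73% of all genes. Sting1, the adaptor of cytosolic DNA sensing, read 10.28, 10.55 and 10.09 in Foxa2-/- lungs, against 9.48, 9.75 and 9.53 in controls, with no overlap (difference 0.72, SE 0.15, limma adjusted p = 0.123). Ticam1, the adaptor of the RNA receptor TLR3, differed by 0.45 (SE 0.11, adjusted p = 0.166). Among 29 genes of the interferon gamma response and of class I antigen presentation, 11 had every Foxa2-/- array above all controls and none had every one below, beside 10.8% and 8.73% of all genes, and the median difference was 0.55. Psmb10, a subunit of the immunoproteasome, read 12.32, 12.29 and 12.46 in Foxa2-/- lungs and 11.79, 11.78 and 11.91 in controls (difference 0.53, SE 0.11, limma adjusted p = 0.106). Ciita, the switch for class II genes, differed by 1.07 (SE 0.24, adjusted p = 0.14). Whether these lists differ from the type I list was not tested.

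**Figure D5:**
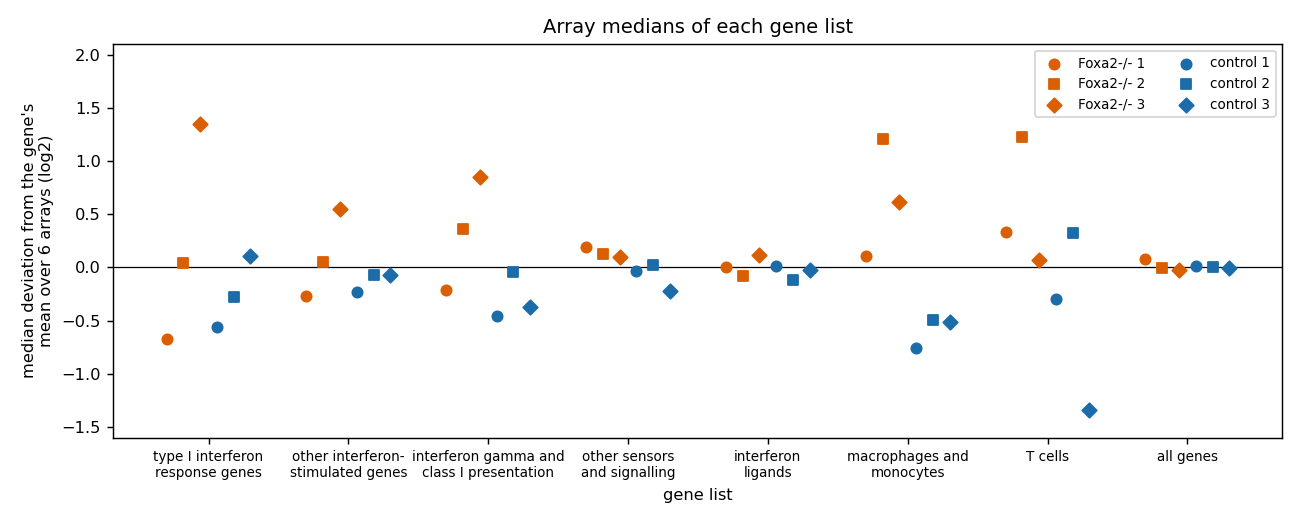
For each gene list (horizontal axis), the median over its genes of the log2 signal minus the gene's mean over 6 arrays (vertical axis), 1 point per array, with Foxa2-/- (orange) left of control (blue). Foxa2-/- replicate 3 is at 1.35 for the type I interferon genes and at 0.07 for T cell markers, while for macrophage and monocyte markers all 3 Foxa2-/- arrays lie above the controls.

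Markers of the tissue and of blood cells were read beside the interferon genes. The lungs showed their epithelial markers at 13.03 to 13.14 in Foxa2-/- lungs and 13.02 to 13.15 in controls, as means over 7 genes including Sftpc and Scgb1a1. Of 9 macrophage and monocyte markers 8 were measured, and the log2 of their summed signal was 14.27, 14.78 and 14.44 in Foxa2-/- lungs, against 13.58, 13.65 and 13.49 in controls. Of the 8, 7 had every Foxa2-/- array above all controls, beside 10.8% of all genes. Cd68 (difference 1.45, SE 0.13, limma adjusted p = 0.0198) and Itgax (1.94, SE 0.23, adjusted p = 0.036) passed, where 0.572% of all genes did. Of 6 T cell markers 5 were measured, with a log2 summed signal of 12.88, 13.71 and 12.62 in Foxa2-/- lungs and 12.19, 12.81 and 11.02 in controls. The 6 thymus markers summed to 12.12, 12.83 and 11.48 in Foxa2-/- lungs and 9.45, 10.03 and 7.94 in controls. Of these, Rag1, which cuts antigen receptor genes, differed by 4.24 (SE 0.62, limma adjusted p = 0.0534) and Dntt, which adds bases at their joints, by 4.08 (SE 0.56, adjusted p = 0.0454), both with every Foxa2-/- array above all controls. The marker genes given by name were chosen after their values were seen. Of 9 markers of plasmacytoid dendritic cells, which are known for making type I interferon, 8 were measured, and 7 of the 8 had a positive difference. Their mean level was 9.28, 9.26 and 9.01 in Foxa2-/- lungs and 9.09, 8.68 and 8.36 in controls, while their summed signal, of which the broadly expressed Tcf4 makes up most, was 13.62, 13.75 and 13.71 in Foxa2-/- lungs and 13.81, 13.71 and 13.73 in controls. Siglech, Ccr9 and Pacsin1 had every Foxa2-/- array above all controls, with differences of 0.46 (SE 0.14), 1.99 (SE 0.58) and 0.35 (SE 0.15), and none of the 3 passed. Tcf4 went the other way, with every Foxa2-/- array below all controls and a difference of -0.23 (SE 0.13). Over all genes the shares are 10.8% above and 8.73% below. No gene of the macrophage, T cell, thymus and plasmacytoid dendritic cell lists was highest in Foxa2-/- replicate 3, the array in which most interferon genes were highest. Over all genes only 9.11% were highest there, and for lists of 5 to 8 genes none is close to that share. No marker can be at 0 on this scale. For RNA integrity, the log2 signal of Gapdh at its 3-prime end exceeded that at its 5-prime end by 0.91 to 0.97 in Foxa2-/- lungs and 1.06 to 1.23 in controls, with 0.97 in Foxa2-/- replicate 3. The part of these markers and of RNA integrity in the spread of the interferon genes was not tested.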

How the data were processed

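The log2 values deposited by the authors were made with RMA, per the submitters' processing notes, with no version or settings recorded there. They cover 45101 probe sets on 6 arrays, of which 64 Affymetrix control probe sets were left out. Names came from GEO's platform annotation, where 34945 of the other probe sets had 1 gene symbol, 932 several and 9160 none. The probe set with the highest mean stood for a gene, and 18193 genes were fitted with limma 3.58.1 in R 4.3.3 (Foxa2-/- minus control), with Benjamini-Hochberg adjustment over all of them and a threshold of 0.05. Depth does not apply to arrays, and their number, 3 a group, limits the precision. On simulated data of 18193 genes with this design, 71.6% of genes changed by 1 log2 unit were recovered, 92.5% of those changed by 2 and 100.0% of those changed by 3. The noise was normal, and each gene had its moderated spread from limma, which is drawn towards a value common to all genes. There were 14 false calls. The members' standard errors (median 0.55, against 0.16 for all genes) are wider, so these shares do not apply to them. The members and lists were chosen with earlier results of these data known. Genes named were Foxa2, the 37 members, the 2 with the smallest p in each further list, and Ifnb1, with exceptions marked. In all, 15 alternatives were listed and another was added after the data were seen. Promoter sequences came from RefSeq, assembly GRCm38.p6.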

Additional observations from a re-analysis of the deposited data

How the results depend on the processing

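No member passed in the 15 alternatives or over all 66 probe sets, an alternative chosen after the data were seen. All genes passing numbered 104, against 607 with array weights, 52 among genes above the median, 0 with the title number as a fixed block, 399 with it as a random block, and 0 to 249 with 1 array left out (249 without Foxa2-/- replicate 1). Of the other interferon genes none passed, against 6 with array weights, 3 with the random block and 0 to 4 with 1 array left out. Members whose groups did not overlap numbered 0 by the brightest probe set, where 19.6% of all genes did not overlap. They numbered 1 with cyclic loess (Ifnar2) and 2 with the mean of probe sets (Adar, Ifi35), settings for which the share over all genes was not counted. With 1 array left out they numbered 0 to 12. The 12 were without Foxa2-/- replicate 1, where 34.7% of all genes did not overlap. Without Foxa2-/- replicate 3, where 29.4% of all genes did not, Ifnar2 lay above all controls and Ifit2 and Ifit3 below. Foxa2, at -4.30, passed with array weights (-4.95), median centring (-4.31), the random block (-4.64) and trend and robust settings (-4.30), and ran from -5.12 to -3.83 with 1 array left out.

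Signs turned for Ifit2 (0.10 with array weights, 0.29 with the fixed block), Ifit3 (0.41, 0.98, and 0.31 with the random block), Samd9l (0.49, 0.32, and 0.00 with the random block) and Tor3a (0.12 with the mean of probe sets). With 1 array left out, the difference ran from -0.14 to 0.81 for Bst2, -0.31 to 0.76 for Cmpk2, -0.14 to 0.94 for Eif2ak2, -0.37 to 1.21 for Herc6, -0.08 to 0.24 for Ifi35, -0.29 to 0.68 for Ifih1, -0.39 to 1.53 for Ifit1, -1.14 to 0.21 for Ifit2, -1.14 to 0.53 for Ifit3 and -0.02 to 0.05 for Ifnar1. It ran from -0.22 to 1.38 for Mx1, -0.61 to 1.10 for Mx2, -0.02 to 0.85 for Parp14, -0.22 to 0.82 for Parp9, -0.58 to 0.63 for Samd9l, -0.29 to 0.19 for Tor3a, -0.22 to 0.90 for Trim30a, -0.10 to 1.27 for Usp18 and -0.17 to 0.71 for Xaf1. For all of these but Ifnar1 and Tor3a the lowest value was that without Foxa2-/- replicate 3 and the highest that without Foxa2-/- replicate 1. The cause was not tested. Apart from the title number used as a block above, the labels give no number that pairs the groups.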
